A study of Homo sapiens with 6 samples.

Results

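This report describes the genes of human chromosome 8 whose annotated start lies at 50 Mb or beyond in the hg38 genome build, which takes in nearly all of the long arm of the chromosome. Of 60669 genes in the count files, 1463 lie there, 712 had a read in at least 1 library, 373 passed the count filter for testing, and 251 had a mean CPM, the read count scaled to the library total, of at least 4 over the 6 libraries. These 251 genes are the members, and all 251 were tested. They run from PCMTD1, which starts at position 51817575, to C8orf33, which ends at position 145066685, and 240 of them are protein-coding. Chromosome 8 under 50 Mb gave 142 genes at the same CPM minimum, and the other chromosomes gave 11071.

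Total RNA was sequenced from 293T cells, a human embryonic kidney line that carries the SV40 large T antigen and has an abnormal, hypotriploid set of chromosomes. There were 3 groups of 2 libraries, which the labels call biological replicates: control cells, cells in which MLL2 was knocked out with CRISPR/Cas9, and cells in which PRMT1 was knocked down with a short hairpin RNA against it. MLL2 is a histone H3 lysine 4 methyltransferase of the mixed-lineage leukemia family, and PRMT1 is the main enzyme that adds asymmetric dimethyl marks to arginine. The names in the file headers hold the letters shNT for the control and knockout libraries and shPR for the knockdown libraries, which the labels do not explain, so whether control and knockout cells carry a hairpin is not stated. Nor do the labels tell if the knockout cells are 1 clone, so a trait of a single clone and an effect of the lost MLL2 cannot be told apart. Counts were made per gene and per strand, and no measurement of DNA was among the files analysed.

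A cell that gains or loses part of a chromosome usually makes RNA from the genes there in proportion to the number of copies, so that neighbouring genes without a shared function move together. Some genes depart from the dose because feedback on transcription or RNA stability holds their level near that of other cells, which is called buffering, and others move further than the dose. The long arm of chromosome 8 holds MYC, a transcription factor that promotes growth, together with genes for ribosomal proteins, translation factors, the cohesin subunit RAD21 and a dense block of zinc finger genes near its end. Copy changes of this arm are common in human tumours and cultured lines.

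The stretch was chosen by the log2 changes between knockout and control libraries in an earlier look at these counts, in which its genes were lower. Values of the knockout against the control are therefore given as a description, with no p-value. The knockdown did not enter the choice, and its tests are given with p-values adjusted over all genes tested. Both comparisons use the same 2 control libraries.

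Library totals ran from 20061471 to 22351532 counts, and no library stood apart in the level of chromosome 8 under 50 Mb. PRMT1 RNA was at 306 and 319 CPM in the control libraries and at 38.2 and 34.9 CPM in the knockdown libraries, a fall of 3.10 on the log2 scale (SE 0.09, adjusted p = 5.5e-16). The name MLL2 has been used for KMT2D and for KMT2B, and neither was lower in the knockout (log2 change 0.19 ± 0.26 SE for KMT2D and 0.02 ± 0.25 SE for KMT2B). An edit need not lower the RNA of the edited gene, so these levels do not check the knockout label. Marker genes of the 293 line, among them VIM, KRT18 and NEFL, had counts in every library, and their summed level was 749 to 1043 CPM, lowest in the knockout. Markers of leukocytes, endothelium, hepatocytes, fibroblasts and cardiac muscle had a count for 3 to 5 of 8 genes per library, with a summed level of 1.94 to 3.73 CPM, and CD3E was at 0 in all.

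In the MLL2 knockout the long arm was lower as a block. The median log2 change of the 251 members was -0.45, that is 73.1% of the control level, against -0.02 for chromosome 8 under 50 Mb and 0.04 for the other chromosomes. Relative to these, the members stood at 73.8% and 71.0%. As plain arithmetic, a change from 4 copies to 3 gives 75% of the level, and from 3 copies to 2 gives 66.7%. A change from 2 copies to 1 gives 50%, and from 5 copies to 4 gives 80%. The number of copies in these cells was not measured.

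Both knockout libraries showed the same level. Against the mean of the control libraries, the members' median log2(CPM + 0.5) was -0.45 in knockout replicate 1 and -0.43 in replicate 2, and it lay within 0.01 of 0 in each control library. The genes under 50 Mb were at -0.01 in both knockout libraries. The knockdown libraries differed from each other: the members' median was -0.03 in replicate 1 and -0.17 in replicate 2, while the genes under 50 Mb were at -0.04 and -0.05. Counts in the members made up 2.04% and 2.0% of all counts in the control libraries, 1.44% and 1.42% in the knockout libraries, and 1.98% and 1.91% in the knockdown libraries. Genes under 50 Mb made up 0.969% and 0.926%, 0.847% and 0.854%, and 0.976% and 1.02% in the same order. In both sets the knockout libraries lay below the other 4, with no overlap, by more in the members.

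**Figure D1:**
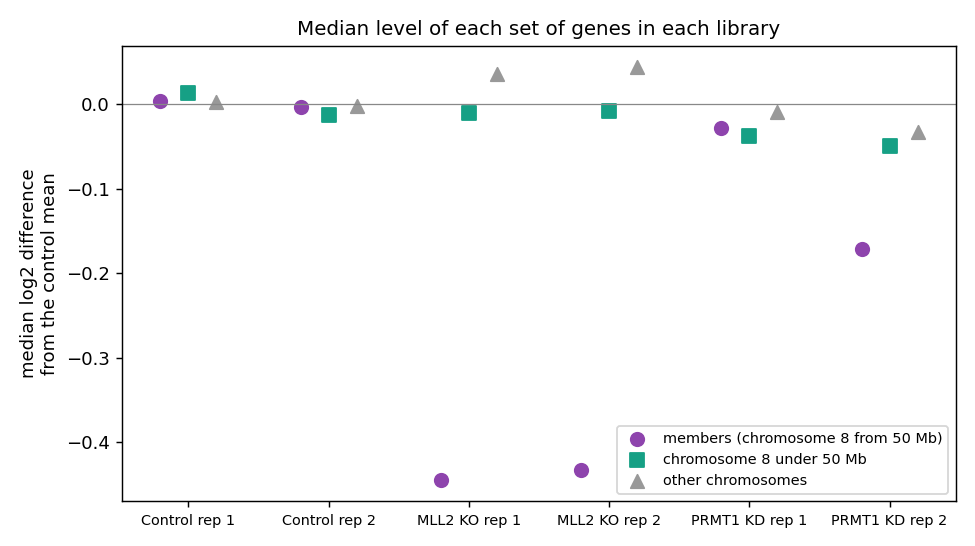
Median over genes of log2(CPM + 0.5) minus the control mean (vertical axis) in each of the 6 libraries (horizontal axis), for the 251 members (circles), chromosome 8 under 50 Mb (squares) and other chromosomes (triangles). The members sit at -0.45 and -0.43 in the knockout libraries, where the genes under 50 Mb sit at -0.01, and knockdown replicate 2 lies at -0.17.

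Most members shared the lower level. In the knockout, 236 of 251 (94.0%) had a log2 change below 0, and 211 (84.1%) had both knockout libraries below both control libraries, where 32.5% of all genes tested did. For 3 members both knockout libraries lay above both controls, against 30.1% of all genes tested. The test at an adjusted p of 0.05 called 156 members lower and 1 higher, against a background of 12.1% lower and 10.3% higher among all genes tested. Since this comparison chose the stretch, nothing is read from these counts. The 156 became 102 to 107 when 1 control or knockout library was left out, and 102 without control replicate 2. By size of change, 20 members were below -1, 68 between -1 and -0.6, 87 between -0.6 and -0.3, 61 between -0.3 and 0, and 15 at or above 0.

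**Figure D2:**
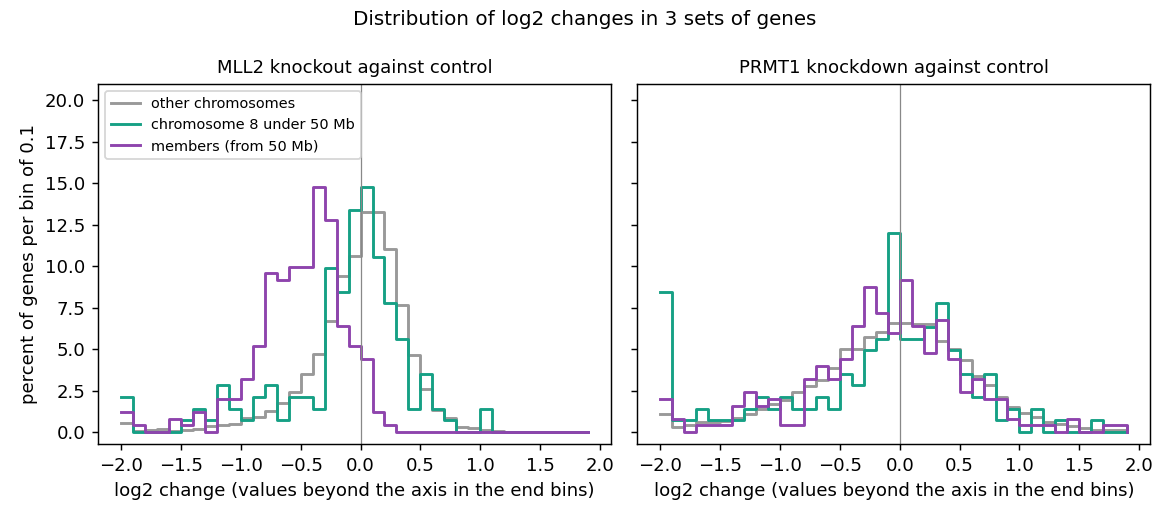
Percent of genes in bins of 0.1 (vertical axis) of the log2 change (horizontal axis) in the knockout (left) and the knockdown (right), for members, chromosome 8 under 50 Mb and other chromosomes. In the knockout the members' curve is displaced to a median of -0.45 and has 15 genes at or above 0, whereas in the knockdown the curves have medians of -0.08, -0.05 and -0.02.

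The position at which the level changed was sought among the 393 expressed genes of the chromosome, as the gap between neighbouring genes that left the smallest deviations from the medians on its sides. It fell between HGSNAT, which starts at position 43140464, and ASNSP1, which starts at 46579213. The chromosome's centromere lies in this gap. The median log2 change was -0.01 for the 136 genes before it and -0.45 for the genes after it, and the step removed 13.3% of the summed deviation. Knockout replicate 2 alone, and squared in place of absolute deviations, gave the same gap. Knockout replicate 1 alone placed the step 1 gene earlier, between POMK and HGSNAT, and so did the fit without knockout replicate 2. With only genes of at least 10 CPM it moved to between SNAI2 and PCMTD1, at 51.8 Mb. Over all 393 genes, a step at that place removed 13.1% of the summed deviation. A step between POMK and HGSNAT removed 13.2%. These places are thus hardly told apart from the best gap, and the step is not resolved to the centromere.

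The few genes between the centromere and 50 Mb had mixed values. PRKDC, the catalytic subunit of the DNA-dependent protein kinase, was at 1755 and 1520 CPM in the control libraries and at 1098 and 1129 CPM in the knockout libraries, a log2 change of -0.56 ± 0.09 SE. SPIDR, a scaffold of homologous recombination repair, was at -0.63. Their neighbours did not share this level: the replicative helicase subunit MCM4 was at -0.16, the ubiquitin-conjugating enzyme variant UBE2V2 at 0.07 and the transcription factor SNAI2 at 0.07. ASNSP1 had the largest change there, -3.67, but it is a pseudogene of the asparagine synthetase gene ASNS, and the assignment of its reads is uncertain. Just inside the boundary, PCMTD1 was at -0.60, its divergent transcript PCMTD1-DT at -0.71, the autophagy gene RB1CC1 at -0.45 and the proton pump subunit ATP6V1H at -0.30.

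**Figure D3:**
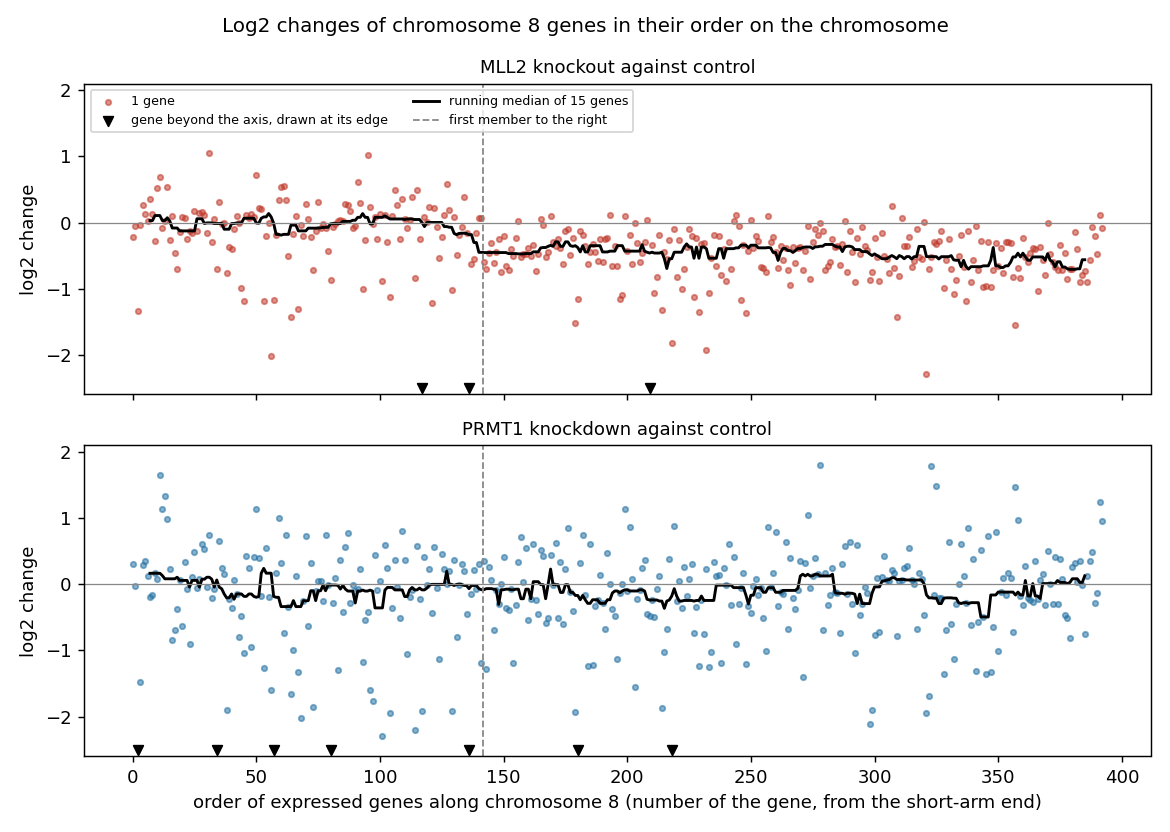
Log2 change (vertical axis) of each expressed gene of chromosome 8 in order along the chromosome (horizontal axis), in the knockout (top) and the knockdown (bottom), with the running median of 15 genes as a line and triangles for genes beyond the axis. The knockout line lies near 0 over the 142 genes left of the dashed boundary and near -0.45 over the 251 members, while the knockdown line shows no step there.

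From 50 Mb on, the lower level was present in each window along the arm. In windows of 10 Mb with at least 10 genes, the 9 windows from 50 Mb on had knockout medians between -0.57 and -0.35 (a further window had 9 genes and a median of -0.56), and the 5 windows before it had medians between -0.07 and 0.04. Among 262 windows on the other chromosomes, medians ran from -0.56 to 0.30, and 4 of them lay at or below the highest of the 9. These were the adjacent windows of chromosome 6 from 70 to 100 Mb (-0.56, -0.50 and -0.42) and chromosome 11 from 40 to 50 Mb (-0.50). All windows of chromosome 6 from 70 Mb on had medians below 0, from -0.56 to -0.15. Allowing a further step on chromosome 8, the best place was between DSCC1 and DEPTOR at 119.9 Mb. The medians were -0.40 for the 162 genes before it and -0.55 for the 95 genes from there to the end. This raised the deviation removed to 14.3%. The last window, from 140 Mb on, held 59 genes with a median of -0.57.

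In the PRMT1 knockdown no such step was found near the centromere. The best single gap lay at 11.8 Mb, between NEIL2 and FDFT1, and removed 0.590% of the summed deviation. The same search on the differences between the replicates of each group removed 1.37% to 4.39%. Knockdown medians of the 9 windows ran from -0.17 to 0.06, inside the range of -0.65 to 0.59 of the windows on other chromosomes.

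The change in the knockout was not the same for each member. The robust SD of the members' log2 changes (from the median absolute deviation) was 0.33, against 0.31 for the genes under 50 Mb and 0.31 for the other chromosomes, and the median SE of a single member was 0.12. Within 0.2 of their own median lay 43.4% of the members, 48.6% of the genes under 50 Mb and 47.8% of the genes elsewhere. Within 2 SE of their own median lay 150 members (59.8%), beside 50.7% of the genes under 50 Mb and 57.5% of the genes elsewhere. The spread around the lower level was therefore close to the spread of genes that were not displaced, and exceeded the error of single genes.

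Members of low expression had the lowest values. Split into 3 classes by expression, the members had a knockout median of -0.63 in the lowest class, -0.40 in the middle and -0.38 in the highest. The other chromosomes showed a gradient of the same sign (-0.09, 0.05 and 0.09), and after subtracting it the members stood at -0.54, -0.46 and -0.47. In 3 classes of exon length, the shortest was at -0.53 and the others at -0.44 and -0.44, with a robust SD of 0.32 within a class. After subtracting the other chromosomes they stood at -0.57, -0.49 and -0.48. Differences between class medians were not tested.

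Members that departed from the block were taken as those at least 0.35 and at least 2 SE from the median of -0.45, with both knockout libraries on that side. There were 33 below (13.1%) and 26 above (10.4%). The same rule around their own medians gave 21.1% and 11.3% of the genes under 50 Mb and 15.8% and 9.73% of the genes on other chromosomes, so departures of this size were no feature of the arm alone. Of the 26 above, 8 were left with a minimum of 0.5 in place of 0.35, and of the 33 below, 24 were. The members below had a median mean level of 13.5 CPM and those above of 48.7 CPM.

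FABP5, a fatty acid carrier of epidermis and other tissues, lay furthest below. It was at 13.4 and 11.1 CPM in the control libraries and at 0.277 and 0.491 CPM in the knockout libraries, from 6 and 10 reads, a log2 change of -4.99 ± 0.39 SE. In the knockdown libraries it was at 8.95 and 8.60 CPM, which did not pass the test (adjusted p = 0.074). The knockout libraries were far under the other 4. FABP5 has many processed pseudogenes, so the assignment of its reads is uncertain.

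LRATD2, a neighbour of MYC, was at 78.3 and 79.1 CPM in the control libraries and at 17.7 and 14.4 CPM in the knockout, a log2 change of -2.29 ± 0.12 SE. CA2, the cytosolic carbonic anhydrase that interconverts carbon dioxide and bicarbonate, was at 202 and 199 CPM in the control, and at 59.9 and 53.9 CPM in the knockout, a change of -1.82 ± 0.09 SE. LRATD2 was thus at 20.4% and CA2 at 28.4% of the control level, where the block was at 73.1%. RUNX1T1, a corepressor known from the RUNX1 fusion of acute myeloid leukemia, was at 5.94 and 5.86 CPM in the control and at 1.34 and 1.77 CPM in the knockout, a change of -1.92 ± 0.29 SE. EPPK1, a plakin that binds keratin filaments, was at -1.55, C8orf34 at -1.52, the amidase NTAQ1 at -1.43, the cilium protein CFAP418 at -1.37, C8orf88 at -1.36 and the centriole protein LRRCC1 at -1.32. CFAP418 rested on libraries that differed, with 1.94 and 4.56 CPM in the knockout.

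At the other end, ZHX1 had the highest knockout change of all members. ZHX1 encodes a zinc finger and homeobox repressor, and it was at 66.5 and 67.0 CPM in the control libraries and at 78.8 and 79.9 CPM in the knockout libraries, a log2 change of 0.25 ± 0.09 SE. FAM91A1, which lies under 1 Mb away, was at 95.5 and 104.9 CPM in the control and at 104.2 and 104.9 CPM in the knockout, a change of 0.06 ± 0.09 SE. Between ZHX1 and FAM91A1 lie ATAD2, at -0.69, and NTAQ1, at -1.43, so genes at the control level and genes far below it were interspersed.

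Regulators of other kinds also stood near the control level in the knockout. HEY1, a transcription repressor downstream of Notch, was at 231 and 214 CPM in the control and at 220.0 and 225 CPM in the knockout, a change of -0.00 ± 0.08 SE. CCNE2, a cyclin that drives entry into S phase, was at 0.11, the transcription factor ZFHX4 at 0.10, the transcribed pseudogene ZNF252P at 0.11, the m6A reader YTHDF3 at 0.05, and the mitochondrial proteins TMEM70 and MTERF3 at 0.12 and 0.04. POP1, a protein of the ribonuclease P and MRP complexes, was at 53.3 and 52.8 CPM in the control and at 58.1 and 54.99 CPM in the knockout (0.09 ± 0.09 SE). The ribosome assembly factor RRS1 was also at 0.09, with overlapping libraries. All of these genes met the rule for members above the block. That rule already asks for at least 2 SE above -0.45, so this distance is no separate result. The SE of these genes was 0.08 to 0.14. Their distance from 0 is not resolved: with 1 library left out, CCNE2 ran from -0.04 to 0.26, ZFHX4 from 0.00 to 0.20, MTERF3 from -0.16 to 0.28, TMEM70 from 0.04 to 0.21, RRS1 from -0.05 to 0.23, and YTHDF3 from -0.05 to 0.15. FAM91A1 and HEY1 ran from -0.00 to 0.13 and from -0.06 to 0.06.

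**Figure D4:**
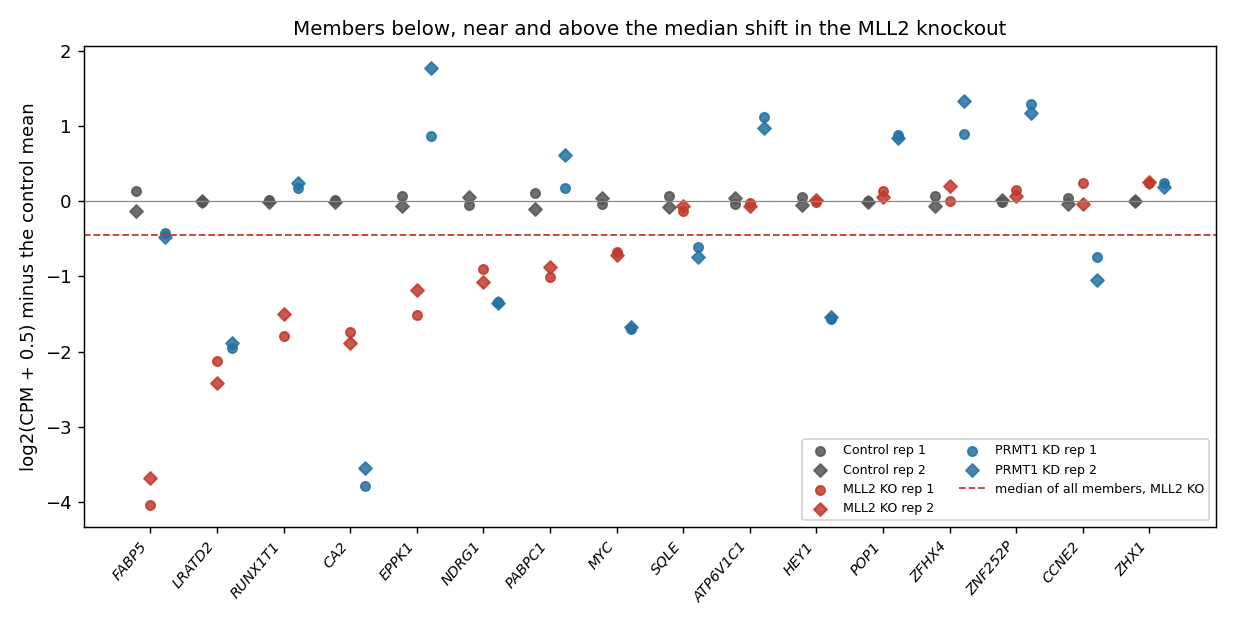
Level of 16 members in each library as log2(CPM + 0.5) minus the control mean (vertical axis), ordered by their knockout change (horizontal axis), with the members' knockout median as a dashed line. FABP5, LRATD2, RUNX1T1 and CA2 lie far under the line in both knockout libraries, HEY1 and ZHX1 lie at or above 0, and the knockdown points (blue) follow no such line.

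MYC was somewhat below the block's median in the knockout, at 61.4% of the control level, and lower still in the knockdown. It was at 197 and 209 CPM in the control libraries, at 127 and 123 CPM in the knockout libraries (log2 change -0.70 ± 0.08 SE) and at 62.3 and 63.5 CPM in the knockdown libraries. The fall in the knockdown was -1.69 ± 0.08 SE, with an adjusted p of 4.3e-12. PVT1, the long noncoding RNA gene just beyond MYC, was at 9.43 and 9.20 CPM in the control, at 5.83 and 7.21 CPM in the knockout and at 22.5 and 41.5 CPM in the knockdown. PVT1 rose in the knockdown by 1.78 ± 0.21 SE (adjusted p = 8.8e-07), in the direction opposite to MYC, and by 1.27 without knockdown replicate 2. LRATD2, on the other side of MYC, fell by 1.94 on the log2 scale in the knockdown, to 20.02 and 20.9 CPM (adjusted p = 7.3e-11).

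In the knockdown the members did not move as a block. Their median was -0.08, against -0.05 for the genes under 50 Mb and -0.02 for the other chromosomes. The difference from the genes under 50 Mb was -0.03, and -0.15 with a minimum of 10 CPM. The members' median was -0.18 without knockdown replicate 1 and -0.03 without knockdown replicate 2. Of the 251 members, 82 fell (32.7%) and 58 rose (23.1%), where 25.3% and 22.2% of all genes tested did. Among genes of the other chromosomes at the same CPM minimum the shares were 31.7% and 29.1%. Both knockdown libraries lay below both controls for 110 members (43.8%, against 38.5% of all genes tested) and above them for 80 (31.9%, against 35% of all genes tested). The robust SD of the changes was 0.55, against 0.59 and 0.61 in the other sets, which was wider than in the knockout in each set. The class of shortest exon length had a knockdown median of -0.23, the middle -0.08 and the longest 0.09, beside -0.18, 0.01 and 0.14 on the other chromosomes. The part of exon length in the knockdown results was not tested.

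The strongest falls in the knockdown were in CA2 and SULF1. CA2 dropped to 14.1 and 16.7 CPM from about 200 CPM, a change of -3.70 ± 0.10 SE (adjusted p = 5.5e-16), which is beyond its level of 59.9 and 53.9 CPM in the knockout. SULF1, which removes sulfate groups from heparan sulfate outside the cell, was at 41.5 and 39.2 CPM in the control, at 18.0 and 18.0 CPM in the knockout and at 2.71 and 3.64 CPM in the knockdown (-3.66 ± 0.17 SE, adjusted p = 1.6e-12). Neither gene had overlapping libraries between any of the 3 groups. DEPTOR, an inhibitor of the mTOR kinase, fell by 2.11 on the log2 scale, C8orf34 by 1.93, the fibril-associated collagen COL14A1 by 1.90 and LRRCC1 by 1.87. The Notch target HEY1, which stood at the control level in the knockout, fell in the knockdown to 74.7 and 76.4 CPM (-1.56 ± 0.08 SE, adjusted p = 1.2e-11), and KLF10, a gene induced by TGF-beta, fell by 1.41.

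Among the members that rose in the knockdown, ZFPM2, a cofactor of GATA transcription factors, went from 2.69 and 3.44 CPM to 9.87 and 11.6 CPM (1.81 ± 0.27 SE, adjusted p = 1.2e-05). ASAP1, which activates the GTPase of ARF proteins, went from 14.2 and 13.6 CPM to 34.8 and 43.1 CPM (1.49 ± 0.15 SE, adjusted p = 7.9e-08). The proton pump subunit ATP6V1C1 rose from 70.5 and 74.8 CPM to 158 and 143 CPM (1.05 ± 0.09 SE). It was at 71.3 and 69.3 CPM in the knockout, so its control and knockout libraries overlapped. ZNF252P rose by 1.24, ZFHX4 by 1.14, C8orf33 by 0.96, the ubiquitin ligase WWP1 by 0.87 and POP1 by 0.86, each with no overlap between knockdown and control libraries. EPPK1 and its neighbour PLEC, a plakin that links intermediate filaments, were higher in the knockdown by 1.47 and 0.97, but mostly in replicate 2: PLEC was at 42.2 and 88.9 CPM, from 32.9 and 34.1 CPM in the control. Without knockdown replicate 2 these values were 0.92 and 0.33, and PLEC did not pass with DESeq2 (adjusted p = 0.0546).

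The members were also grouped by function, in lists of 4 to 20 genes. For the knockout each list is given by its median, beside -0.45 for all members and 0.04 for the other chromosomes, and by the genes whose knockout libraries both lay below both controls, beside 84.1% of all members and 32.5% of all genes tested. Knockdown counts stand beside 25.3% that fell and 22.2% that rose among all genes tested, and 31.7% and 29.1% on the other chromosomes at the same CPM minimum. With so few genes a list, no count is called particular to its list.

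All 4 ribosomal protein genes of the arm (RPL7, RPL8, RPL30 and RPS20) had both knockout libraries below both controls, with a median of -0.70. RPL8, of the large subunit, was at 1561 and 1614 CPM in the control libraries, at 964 and 956 CPM in the knockout and at 1001 and 893 CPM in the knockdown. All 4 also fell in the knockdown, with a median of -0.45: RPL8 by 0.75, RPL30 by 0.51, RPS20 by 0.39 and RPL7 by 0.23 on the log2 scale. The call of RPL7 (adjusted p = 0.042) ended when any 1 of 5 libraries was left out, and its change was -0.10 without knockdown replicate 2. Genes of ribosomal proteins, PABPC1 and other abundant factors have processed pseudogenes, so the assignment of their reads is uncertain.

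The 4 translation factor genes, EIF3E, EIF3H, EEF1D and PABPC1, likewise all had both knockout libraries below both controls, with a median of -0.71. PABPC1, the main binding protein of the poly(A) tail, was at 212 and 183 CPM in the control, at 97.7 and 107 CPM in the knockout and at 221 and 300 CPM in the knockdown, and was among the members below the block (-0.94 ± 0.11 SE). In the knockdown EEF1D, an exchange factor of elongation factor 1, fell by 1.01 (adjusted p = 3.5e-09), EIF3E fell by 0.31, and EIF3H had a change of -0.15 that did not pass. PABPC1 was called higher in the knockdown by 0.40, a call that ended without control replicate 2 or knockdown replicate 2, and its change was 0.17 without knockdown replicate 2. EIF3E was at -0.17 without knockdown replicate 2 and lost its call without control replicate 1.

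Of the 4 genes of ribosome assembly, BOP1 and DCAF13 had both knockout libraries below both controls, and the list's median was -0.11. BOP1 was at 126 and 131 CPM in the control and at 99.5 and 99.1 CPM in the knockout (-0.38 ± 0.08 SE). DCAF13 was at -0.09 and UTP23 at -0.13, and without knockout replicate 2 they were at -0.04 and 0.02. In the knockdown 3 of 4 rose, namely POP1 by 0.86, UTP23 by 0.65 and DCAF13 by 0.40, while BOP1 was at 0.06. DCAF13 was at 0.23 without knockdown replicate 1.

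Of 17 genes for mitochondrial proteins, 13 had both knockout libraries below both controls, and the median was -0.38. They include the respiratory chain subunits CYC1 (-0.60), NDUFB9 (-0.58), COX6C (-0.69) and UQCRB (-0.43). In the knockdown 9 of 17 fell and none rose, with a median of -0.30. UQCRB and COX6C fell by 0.33 and 0.33 and CYC1 by 0.21, but each of these 3 calls ended without control replicate 1, that of CYC1 also with DESeq2, and the changes were -0.19, -0.20 and -0.13 without knockdown replicate 2. NDUFB9, at 0.01, did not pass.

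Among 20 genes of transcription and chromatin, 15 had both knockout libraries below both controls, with a median of -0.36. ATAD2, a bromodomain ATPase, was at 167 and 170 CPM in the control and at 99.7 and 109 CPM in the knockout (-0.69 ± 0.09 SE), and TAF2, of the general factor TFIID, was at -0.36. In the knockdown 7 fell and 5 rose, with a median of -0.06, and ATAD2 (0.17) and TAF2 (-0.04) did not pass. Of 11 genes of DNA replication, repair and the cell cycle, 10 had both knockout libraries below both controls, with a median of -0.41. RAD21 was at 249 and 238 CPM in the control and at 180 and 179 CPM in the knockout (-0.44 ± 0.08 SE). The helicase RECQL4 was at -0.70, the ribonucleotide reductase subunit RRM2B at -0.39 and the break sensor NBN at -0.20. In the knockdown 2 of 11 fell and 3 rose: CCNE2 fell by 0.91 (adjusted p = 1.6e-05), and the changes of RAD21 (-0.29), NBN (0.31) and RECQL4 (0.27) were calls that ended without control replicate 1. NBN was at 0.19 without knockdown replicate 1, and RECQL4 at 0.17 without control replicate 1.

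The 8 RNA processing genes had a knockout median of -0.27, with both knockout libraries below both controls for 7, and in the knockdown 3 fell and 4 rose with a median of 0.26. The argonaute AGO2 was at 67.2 and 58.4 CPM in the control, at 52.1 and 57.6 CPM in the knockout and at 76.6 and 114 CPM in the knockdown. Its rise in the knockdown of 0.61 (adjusted p = 0.00076) became 0.29 without knockdown replicate 2. AGO2 was at -0.19 in the knockout, and at -0.09 without control replicate 1. INTS8, of the Integrator complex, was at 0.02 in the knockout, with a range of -0.14 to 0.17 when 1 library was left out, and the splicing factor PUF60 at -0.29.

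In membrane traffic and secretion the knockout median was -0.49, with both knockout libraries below both controls for 13 of 15 genes, and 1 fell and 3 rose in the knockdown, with a median of -0.07. LAPTM4B, a lysosomal membrane protein, was at 326 and 319 CPM in the control, at 204 and 200 CPM in the knockout and at 345 and 277 CPM in the knockdown. Its knockout libraries lay under all others. The depalmitoylating enzyme LYPLA1 was at -0.45 and the translocon protein TRAM1 at -0.35 in the knockout, and ATP6V1C1 was the member of this list that stayed above the block.

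The 12 ubiquitin system genes all had both knockout libraries below both controls, with a median of -0.36, and 3 fell and 5 rose in the knockdown, with a median of 0.14. The deubiquitinase VCPIP1 was at 41.1 and 36.4 CPM in the control, at 31.3 and 28.99 CPM in the knockout and at 56.6 and 62.5 CPM in the knockdown. It rose in the knockdown by 0.62 (adjusted p = 8.6e-05), and the ligase RNF139 rose by 0.54. Of 13 kinases, phosphatases and adaptors, 8 fell and 1 rose in the knockdown, with a median of -0.36. NDRG1, a stress-response gene, was at 142 and 153 CPM in the control, at 78.4 and 70.0 CPM in the knockout (-0.99 ± 0.09 SE) and at 58.0 and 57.3 CPM in the knockdown (-1.36 ± 0.09 SE, adjusted p = 2.9e-10). In the knockout 12 of these 13 had both libraries below both controls, with a median of -0.37. The focal adhesion kinase PTK2 was at -0.67 in the knockout and at 0.13 in the knockdown, where it did not pass.

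At the end of the arm, 7 of 9 zinc finger genes of band 8q24.3 had both knockout libraries below both controls, with a median of -0.47. ZNF252P lay above the block there, while ZNF7 was at -0.56, ZNF16 at -0.47 and ZNF696 at -0.29. In the knockdown 3 of 9 rose, ZNF252P by 1.24, ZNF696 by 0.73 and ZNF7 by 0.35, and none fell, and the call of ZNF7 ended without control replicate 1. Of 9 genes of lipid and small molecule metabolism, 8 had both knockout libraries below both controls, with a median of -0.48. SQLE, which makes squalene epoxide for cholesterol, was at 200.2 and 181 CPM in the control, at 173 and 182 CPM in the knockout (-0.10 ± 0.09 SE, and -0.02 without control replicate 1) and at 125 and 114 CPM in the knockdown (-0.67 ± 0.09 SE, adjusted p = 1.9e-06). In the knockdown 4 of these 9 fell and 1 rose, with a median of -0.46. The 8 genes of matrix, adhesion and epithelial structure had the lowest knockout median of the lists, -0.72, and all 8 had both knockout libraries below both controls. In the knockdown 4 fell and 3 rose, with a median of -0.08. The syndecan SDC2 was at -0.20 in the knockout and 0.08 in the knockdown, and EXT1, a heparan sulfate polymerase, was at -0.24 in the knockout, and at -0.35 and -0.12 without knockout replicate 2 and 1. It rose by 0.59 in the knockdown.

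**Figure D5:**
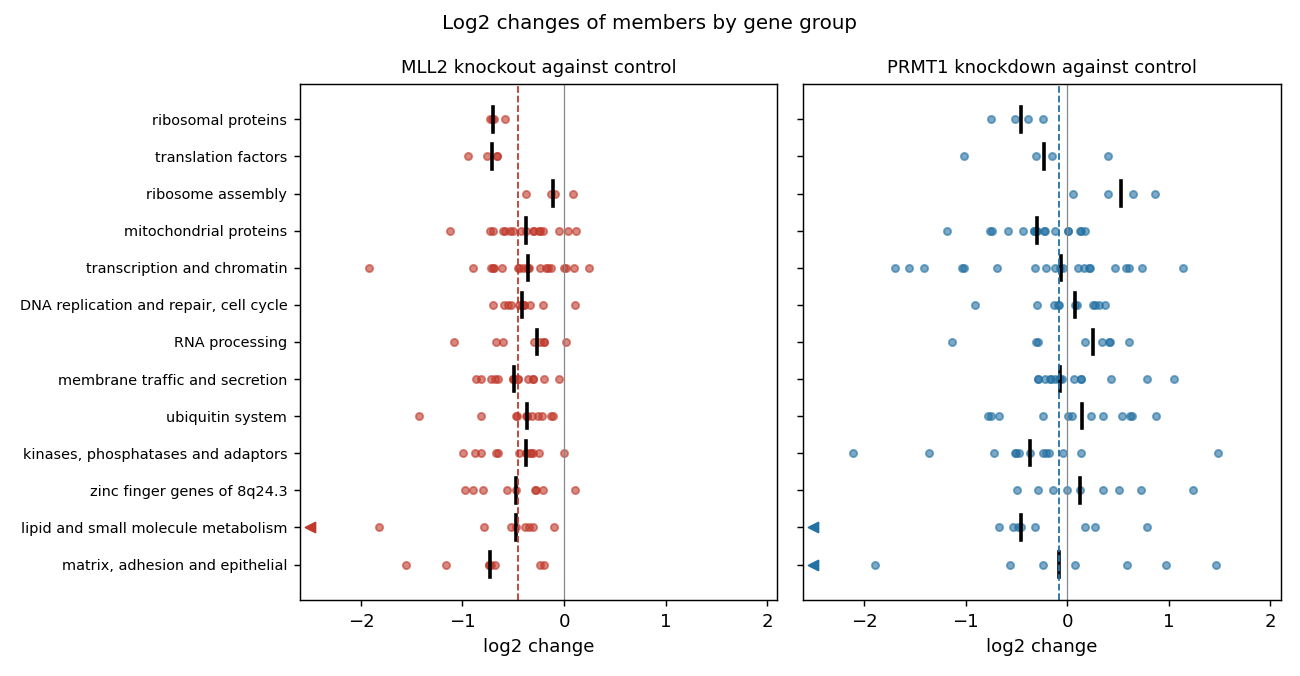
Log2 changes (horizontal axis) of members in 13 gene lists (vertical axis) in the knockout (left) and the knockdown (right), with list medians as black bars, the median of all members as a dashed line and triangles for genes beyond the axis. Knockout medians run from -0.72 to -0.11, all below 0, and knockdown medians from -0.46 to 0.52 on both sides of 0.

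Set directly against the knockout, the members were higher in the knockdown, with a median of 0.38 against 0.03 for the genes under 50 Mb and -0.05 for the other chromosomes. There were 138 members called higher and 26 lower, where 19.4% of all genes tested were higher and 21.4% lower. These values share the knockout libraries that chose the stretch and are given as a description.

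At the boundary of the CPM rule, the values on its sides were as follows. Just inside, ZFP41, at a mean of 4.18 CPM, had a knockout change of -0.28. Just outside, SLC39A4 (3.80 CPM), C8orf44 (3.87 CPM) and PIP4P2 (3.96 CPM) were at -0.76, -1.22 and -1.09. The spans of 8 of the 251 members overlap another annotated gene on the same strand, among them RNF139 and DSCC1, and their counts may hold or lose reads of that gene.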

How the data were processed

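Raw counts in 6 files, 1 per library, were analysed. The authors counted reads per gene, per the file headers with featureCounts 2.0.1, GENCODE release 34, a minimum mapping quality of 10 and reverse strand setting 2. The submitters' processing notes name FastQC 0.11.4, Trim Galore 0.6.10, STAR 2.7.5a, hg38, DESeq2 1.36.0 and featureCounts 1.5.0-p1, which differs from the headers. Libraries were made with a stranded total RNA kit, per the labels' protocols. The deposited counts were fitted with edgeR 4.0.16 (TMM scaling, filterByExpr, quasi-likelihood test, 3 groups, 3 residual degrees of freedom), and p-values were adjusted by the Benjamini-Hochberg method over 17575 genes. CPM values of genes in single libraries are scaled by TMM, but mean CPM and the marker sums by library totals alone. Here n is 2 libraries per group, and SE is that of the log2 change. P-values measure the spread between these libraries only. Gene symbols came from a symbol table, in which 60415 of 60669 genes matched, and the protein-coding label came from GENCODE 29. The members and gene lists were chosen with earlier results of these data known. Genes named are MYC, up to 4 members per list by level, up to 10 on each side of the block in the knockout, up to 10 risen and 10 fallen in the knockdown, and genes beside the step, the 50 Mb boundary and the CPM minimum. Alternatives were DESeq2 1.42.0, relative log expression scaling, other filters and minimums, a replicate block and leaving out each library. The procedure was tested on simulated data in which all members were given the same shift. The real members vary around their median, so the simulation does not show how well the step is placed in these data.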

Additional observations from a re-analysis of the deposited data

How the results depend on the processing

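The stretch was chosen on the knockout and control libraries, so alternative fits of the same libraries are no separate evidence of its direction. The lower level of the members in the knockout kept its direction under every alternative run. Its median was -0.44 with relative log expression scaling, -0.43 with DESeq2, -0.46 with protein-coding genes alone, -0.47 and -0.44 with a minimum of 1 and 10 CPM, and -0.46 to -0.44 with 1 library left out. Minus the genes under 50 Mb it was -0.46 at 10 CPM, -0.44 relative to genes of like exon length, and -0.46 to -0.43 with 1 library left out. Members called lower in the knockout numbered 102 to 175, and called higher 0 to 1, with 1 library left out, and 0 were called higher without a count filter. The step lay at 51.8 Mb with a minimum of 10 CPM, at 43.1 Mb in knockout replicate 1 alone and at 43.1 to 46.6 Mb with 1 library left out. The robust SD was 0.37 and 0.30 at 1 and 10 CPM, and 0.32 to 0.37 with 1 library left out. Members below the block numbered 21 at 10 CPM, and members above it 8 with a minimum deviation of 0.5. In the knockdown, the rule for departures from the median, with its minimum of 0.35, gave 61 members above and 63 below. With a minimum of 0.5 it gave 39 above and 50 below. Under the rule with 0.35, genes under 50 Mb and on other chromosomes departed from their own medians in larger shares, on both sides. The members' knockdown median minus that of the genes under 50 Mb was -0.15 at 10 CPM. The cause of these changes was not tested, other than that fewer genes enter at 10 CPM. Replicate numbers were not taken as a pairing, since the labels tie no libraries together. Same-numbered deviations correlated by 0.075, 0.0465 and 0.203 over 11377 genes. With the replicate block 85 members fell and 61 rose in the knockdown. No member called in the knockdown turned in sign in a setting that also called it, and over the named genes and settings 856 knockdown results stayed on their side of the threshold, 55 lost and 23 gained a call. With 2 libraries per group, small changes of weakly expressed members were not detectable at this depth.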
